A study of Mus musculus with 8 samples.

Results

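The 10 genes described here are *Tfcp2l1* and 9 genes that mark intercalated cells, which were taken by name from the 55401 genes of the deposited kidney table. All 10 were found, and each exceeded an FPKM of 0.5 (fragments of RNA per length of exon, scaled to a fixed number of mapped fragments) in all 8 libraries, so that none passed the filter on low values through a single group. The libraries come from 4 mice treated with rFGF4, a structurally modified and non-mitogenic recombinant human FGF4, and 4 mice of the model group without it, which the study describes as given PBS vehicle. The sample labels name *db*/*db* mice, which lack a working leptin receptor, whereas the study's text on the sequencing names STZ-induced diabetic mice, so the diabetic model is uncertain. In either model the mice were male and received injections into the peritoneum (rFGF4 at a dose of 1.0 mg/kg, or vehicle) on alternate days over 8 weeks. The starting age was 12 weeks for *db*/*db* mice; for STZ-induced mice the descriptions conflict, some giving the same age and others implying a later start. No regimen is given for the sequenced mice in particular. No non-diabetic kidney was among these libraries, and the labels give the tissue as kidney, without saying which part was taken. The study describes RNA from renal cortex for its PCR and names only renal tissue for the sequencing. The number in each library's name is used here as the mouse number. In such tissue fewer cells of a type and less RNA per cell cannot be told apart.

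Intercalated cells secrete acid or base into the urine of the connecting tubule and collecting duct, beside the principal cells that take up water and sodium. Both kinds arise from the same duct epithelium, in which TFCP2L1 is expressed broadly, and FOXI1 is the forkhead factor needed for intercalated cells to form. Their work depends on a vacuolar proton pump, the V-ATPase, whose cytosolic V1 sector splits ATP and whose membrane V0 sector carries protons. Type A cells pump protons into the urine and return bicarbonate to the blood through the anion exchanger AE1, the product of *Slc4a1*. Type B cells secrete bicarbonate through pendrin, the product of *Slc26a4*, and carry AE4, the product of *Slc4a9*, on the other face.

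The regions before the start sites of *Tfcp2l1*, *Foxi1*, 3 subunit genes of the pump and pendrin are shown, the former as the regulators and the latter as the 4 genes whose levels were most alike from mouse to mouse, with pairwise r of 0.78 to 0.96. They are the 250 bases before the RefSeq start, 5′ to 3′ on the gene's own strand, on GRCm38.p6 (the *Atp6v1b1* window is cut to 223 bases at an earlier annotated start). Capitals mark 2 motifs searched on both strands: the forkhead letters TGTTTNC, or GNAAACA on the reverse strand, and a pair of TFCP2L1-type half-sites, that is, CCNG followed after 6 bases by a further CCNG (CNGG on the reverse strand).
Tfcp2l1 (chr1:118627695-118627944, plus strand): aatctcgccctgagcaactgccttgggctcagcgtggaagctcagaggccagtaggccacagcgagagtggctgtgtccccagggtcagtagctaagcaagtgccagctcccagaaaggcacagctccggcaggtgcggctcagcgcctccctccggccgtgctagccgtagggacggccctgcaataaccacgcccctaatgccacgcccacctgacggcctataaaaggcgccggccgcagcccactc
Foxi1 (chr11:34208090-34208339, minus strand): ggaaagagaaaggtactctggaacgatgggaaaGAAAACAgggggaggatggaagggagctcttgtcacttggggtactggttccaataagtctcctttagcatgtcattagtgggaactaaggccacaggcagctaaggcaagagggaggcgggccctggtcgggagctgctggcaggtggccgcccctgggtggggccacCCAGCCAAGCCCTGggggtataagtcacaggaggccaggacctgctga
Atp6v1b1 (chr6:83742767-83742989, plus strand): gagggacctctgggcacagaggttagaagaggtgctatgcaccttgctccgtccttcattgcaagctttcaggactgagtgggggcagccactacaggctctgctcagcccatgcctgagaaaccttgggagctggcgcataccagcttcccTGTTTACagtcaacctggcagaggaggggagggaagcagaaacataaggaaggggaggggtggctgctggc
Atp6v1g3 (chr1:138273488-138273737, plus strand): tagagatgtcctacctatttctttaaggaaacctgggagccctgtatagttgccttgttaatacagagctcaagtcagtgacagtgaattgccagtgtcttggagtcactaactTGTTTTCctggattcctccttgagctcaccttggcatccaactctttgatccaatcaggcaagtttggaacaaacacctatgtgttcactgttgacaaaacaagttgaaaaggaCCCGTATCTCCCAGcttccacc
Atp6v1c2 (chr12:17324731-17324980, minus strand): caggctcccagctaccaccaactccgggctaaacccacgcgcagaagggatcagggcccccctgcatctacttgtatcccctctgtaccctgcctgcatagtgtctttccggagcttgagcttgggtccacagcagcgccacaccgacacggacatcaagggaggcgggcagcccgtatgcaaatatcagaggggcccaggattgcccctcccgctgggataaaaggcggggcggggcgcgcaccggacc
Slc26a4 (chr12:31559985-31560234, minus strand): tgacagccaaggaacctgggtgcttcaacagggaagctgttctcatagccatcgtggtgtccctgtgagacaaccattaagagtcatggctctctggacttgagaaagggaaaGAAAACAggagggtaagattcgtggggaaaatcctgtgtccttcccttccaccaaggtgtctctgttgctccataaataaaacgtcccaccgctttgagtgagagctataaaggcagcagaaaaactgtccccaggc
Of the 7 members with a window in the RefSeq table, *Foxi1*, *Atp6v1b1*, *Atp6v1g3* and *Slc26a4* held the forkhead letters, which 17.8% of all 32851 windows made in the same way hold. The half-site pair was found for *Foxi1*, *Atp6v1g3* and *Atp6v0a4*, against 24.9% of all windows, and neither was found before *Tfcp2l1* or *Atp6v1c2*. The *Atp6v1c2* window lies within the gene's annotated span, since the RefSeq start is downstream of the first annotated one. In *Atp6v0a4* the pair occurred as overlapping matches. These are matches of letters only, and they do not overlap between the motifs.

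Some libraries stood apart. In rFGF4 mouse 1 the summed FPKM of 10 proximal tubule genes was 780, against 1977 to 3461 in the other mice, and that of 5 distal convoluted tubule genes was 63.6, against 183 to 350. In vehicle mouse 5 *Igkc*, an immunoglobulin light chain gene, reached 22334 FPKM, against 22.4 to 2640 in the other mice, and the summed FPKM of 7 macrophage genes was highest, at 2812 (*Igkc* was chosen after its values were seen). All values of a library summed to 389407 to 552604 FPKM. The table holds no counts; the depth relative to vehicle mouse 2, taken from the ratio that low values shared most often, was 0.905 to 1.12.

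*Tfcp2l1* was the only member with higher values in all 4 rFGF4-treated mice than in all 4 vehicle-treated mice. It had 38.9, 44.7, 47.3 and 36.6 FPKM in rFGF4 mice 1, 2, 3 and 5, and 24.4, 35.0, 34.1 and 28.3 FPKM in vehicle mice 2, 3, 4 and 5. The lowest rFGF4 value, in mouse 5, lay just above the highest vehicle value, in mouse 3. The means were 41.9 ± 4.95 (SD, n = 4) and 30.5 ± 5.04 FPKM (SD, n = 4), and the difference on the log2(FPKM + 1) scale was 0.45 (standard error 0.15), 1.37-fold higher with rFGF4. The two-sided exact permutation test gave p = 0.0286, the smallest that 4 mice against 4 allow. In limma the unadjusted p was 0.0160 and the Benjamini-Hochberg adjusted p was 0.918, and 3.56% of the 15150 genes tested were likewise higher at an unadjusted p under 0.05. Groups that did not overlap, with rFGF4 higher, were found in 2.66% of all genes, with rFGF4 lower in 0.667%, and in either direction in 3.33%. When single mice were left out, the log2 difference of *Tfcp2l1* lay between 0.36 and 0.52 and the unadjusted p between 0.0128 and 0.0468. When the libraries were instead scaled to the same median ratio over genes, the difference was 0.33 (limma, unadjusted p = 0.128). The groups then overlapped, with rFGF4 mouse 1 at 30.0, below vehicle mice 3 and 4 at 36.8 and 37.6. The gene (ENSMUSG00000026380) lies on chromosome 1 from 118627945 to 118685168 of GRCm38, and 130 of its 9438 exonic bases are shared with an annotated small nuclear RNA gene.

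**Figure D1:**
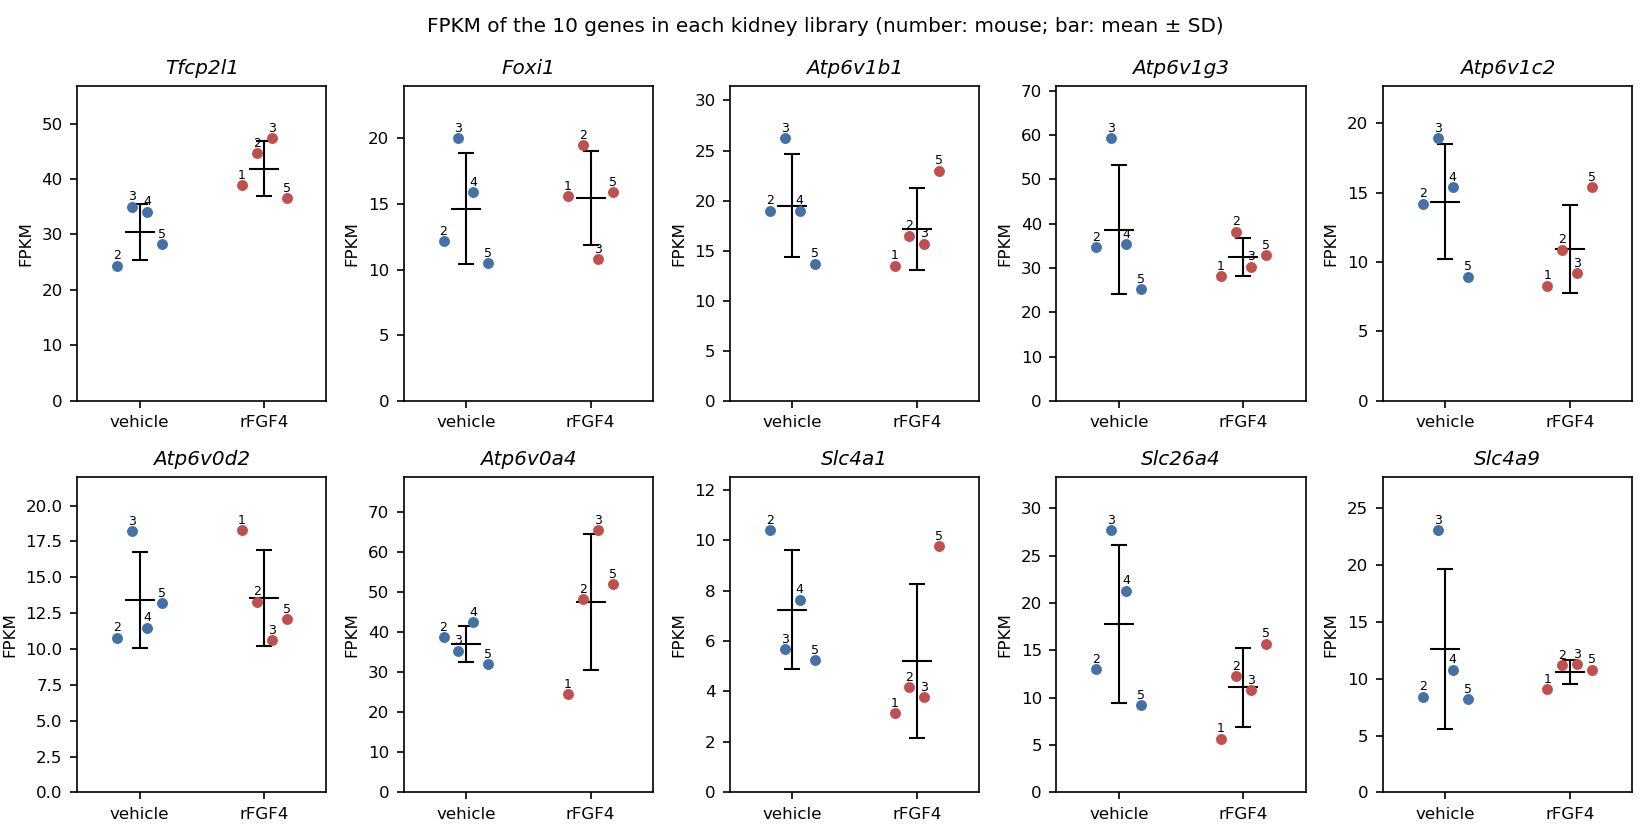
FPKM of the 10 genes in each library, with vehicle-treated mice in blue, rFGF4-treated mice in red, the mouse number beside each point, and the mean ± SD of 4 mice in black. Each axis starts at 0. *Tfcp2l1* is the only panel in which the groups do not overlap, and vehicle mouse 3 is the highest point in 6 of the 10 panels.

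The study called genes by size, 1.5-fold or more, together with an unadjusted p under 0.05. By limma 0 members met both, against 1.52% of all tested genes, 1.09% higher and 0.436% lower. *Tfcp2l1* was the only gene of the 10 at an unadjusted p under 0.05, where 4.62% of all tested genes were (3.56% higher and 1.06% lower), and 0 members had an adjusted p under 0.05, as did 0% of all genes. The median log2 difference of the 10 was -0.14, with 4 genes above 0 and 6 below, whereas the median of all tested genes was 0.09 with 67.1% of them above 0 and 32.9% below. Scaling by the median ratio, which moved the median of all genes to -0.01, left 2 members above 0 and 8 below, with a median of -0.26. Without vehicle mouse 3, 6 members were above 0, and the unscaled median was 0.10.

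Per length, *Atp6v0a4* was the most abundant member, with a mean of 42.4 FPKM over the 8 mice, followed by *Tfcp2l1* at 36.2 and *Atp6v1g3* at 35.5. The values of these 3 overlapped widely from mouse to mouse. *Atp6v1b1* (18.3), *Foxi1* (15), *Slc26a4* (14.5), *Atp6v0d2* (13.5), *Atp6v1c2* (12.7) and *Slc4a9* (11.6) formed a middle range in which neighbours likewise overlapped, and *Slc4a1* was lowest at 6.22 FPKM.

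*Foxi1* (ENSMUSG00000047861; chromosome 11, 34204338 to 34208089) had no group difference beyond the spread of the mice. Its FPKM was 15.6, 19.5, 10.8 and 15.9 in rFGF4 mice 1, 2, 3 and 5 and 12.2, 20.0, 15.9 and 10.5 in vehicle mice 2 to 5. The groups covered nearly the same range, and rFGF4 mouse 3, which had the highest *Tfcp2l1*, had the lowest *Foxi1* of its group. The log2 difference was 0.08 (standard error 0.23; limma adjusted p = 0.967), and it was -0.04 after scaling.

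Among the V1 subunits, *Atp6v1b1* encodes the B subunit of the kidney and inner ear form of the pump, whose loss in people causes distal renal tubular acidosis with deafness (ENSMUSG00000006269; chromosome 6, 83742990 to 83758855). It had 13.5, 16.5, 15.7 and 23.0 FPKM in rFGF4 mice 1, 2, 3 and 5 and 19.0, 26.2, 19.0 and 13.7 FPKM in vehicle mice 2 to 5. The log2 difference was -0.16 (standard error 0.22; two-sided exact permutation p = 0.514). *Atp6v1g3*, a G subunit found mainly in kidney (ENSMUSG00000026394; chromosome 1, 138273738 to 138289462), had 28.2, 38.2, 30.3 and 32.9 FPKM with rFGF4 and 34.7, 59.2, 35.4 and 25.2 FPKM with vehicle. Its high vehicle mean rested on mouse 3, and the log2 difference of -0.19 (standard error 0.24) became 0.04 without that mouse. *Atp6v1c2*, an alternative C subunit (ENSMUSG00000020566; chromosome 12, 17284721 to 17329359), had 8.31, 10.9, 9.22 and 15.4 FPKM with rFGF4 and 14.2, 18.9, 15.4 and 8.94 FPKM with vehicle. Here rFGF4 mouse 5 and vehicle mouse 5 stood on the other group's side, and the log2 difference was -0.35 (standard error 0.25; two-sided exact permutation p = 0.314). It was -0.55 without vehicle mouse 5 (unadjusted p = 0.0376 in limma) and -0.21 without vehicle mouse 3 (unadjusted p = 0.434 in limma). Of the exonic bases of *Atp6v1c2*, 50 are shared with *Pdia6* on the opposite strand.

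With all 8 mice, group differences of the V0 subunits lay within the spread of the mice. *Atp6v0a4*, the a subunit of intercalated cells whose loss also causes distal renal tubular acidosis (ENSMUSG00000038600; chromosome 6, 38048483 to 38124586), is found in mouse proximal tubule as well. It had 24.6, 48.3, 65.5 and 51.9 FPKM in rFGF4 mice 1, 2, 3 and 5 and 38.7, 35.4, 42.5 and 32 FPKM in vehicle mice 2 to 5. Mice 2, 3 and 5 of the rFGF4 group all lay above the vehicle group, and mouse 1, the library with little proximal tubule RNA, lay below it. The log2 difference was 0.27 (standard error 0.28; two-sided exact permutation p = 0.429) with all mice. It was 0.55 without rFGF4 mouse 1 (unadjusted p = 0.00680 in limma) and 0.10 without rFGF4 mouse 3 (unadjusted p = 0.728 in limma). On mice 2, 3 and 5 of each group, with a block for the mouse number, it was 0.62 (unadjusted p = 0.0246 in limma). There *Atp6v0a4* met both criteria, as did 1.74% of all tested genes. Over the 8 mice the r of *Atp6v0a4* with the summed FPKM of 10 proximal tubule genes, on log2 scales, was 0.77 (exact permutation p = 0.0242, adjusted p = 0.156 over 90 relations of members to library measures; rho = 0.62, p = 0.115, adjusted p = 0.304), and 0.39 without the 2 mice farthest in that sum. In the annotation 62 exonic bases of *Atp6v0a4* are shared with *Tmem213* on the opposite strand and 259 with *D630045J12Rik* on the same strand.

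*Atp6v0d2*, a d subunit that is also used by osteoclasts and macrophages (ENSMUSG00000028238; chromosome 4, 19876841 to 19922605), had its highest value in the library where *Atp6v0a4* was lowest. It had 18.3, 13.3, 10.6 and 12.1 FPKM in rFGF4 mice 1, 2, 3 and 5 and 10.8, 18.2, 11.5 and 13.2 FPKM in vehicle mice 2 to 5. Beside these values, the summed FPKM of 7 macrophage genes was 1953, 999, 288 and 156 in the rFGF4 mice and 108, 920, 107 and 2812 in the vehicle mice. The rFGF4 mouse with the highest macrophage sum also had the highest *Atp6v0d2* of its group, whereas vehicle mouse 5, with the highest sum of all, did not. The r of *Atp6v0d2* with this sum was 0.70 (exact permutation p = 0.0576, adjusted p = 0.216; rho = 0.67, p = 0.0831, adjusted p = 0.258; 0.84 without the 2 farthest mice). It was 0.62 with the B and plasma cell sum (exact permutation p = 0.109, adjusted p = 0.318, rho = 0.76, p = 0.0368, adjusted p = 0.158, 0.90 without the 2 farthest mice) and 0.63 with the scaling factor of the library (exact permutation p = 0.0840, adjusted p = 0.269, rho = 0.60, p = 0.132, adjusted p = 0.322, 0.30 without the 2 farthest mice). With the proximal tubule sum it was -0.83 (exact permutation p = 0.00119, adjusted p = 0.0268; rho = -0.88, p = 0.00724, adjusted p = 0.0652; -0.78 without the 2 farthest mice). The group difference of *Atp6v0d2* was 0.02 on the log2 scale (standard error 0.21) and -0.10 after scaling.

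*Slc26a4* and *Slc4a1* had the lowest differences of the members, which did not exceed the spread between mice. Pendrin (*Slc26a4*; ENSMUSG00000020651; chromosome 12, 31519827 to 31559969) had 5.66, 12.3, 10.8 and 15.7 FPKM in rFGF4 mice 1, 2, 3 and 5 and 13.0, 27.7, 21.3 and 9.18 FPKM in vehicle mice 2 to 5. Vehicle mice 3 and 4 lay above every rFGF4-treated mouse, whereas vehicle mouse 5 lay among them. The means were 11.1 ± 4.18 (SD, n = 4) and 17.8 ± 8.33 FPKM (SD, n = 4), with a log2 difference of -0.59 (standard error 0.38; two-sided exact permutation p = 0.229). Without vehicle mouse 5 it was -0.85 (unadjusted p = 0.0464 in limma), without vehicle mouse 3 it was -0.35, and without rFGF4 mouse 1 it was -0.33. *Slc4a9* (ENSMUSG00000024485; chromosome 18) ran from 9.08 to 11.3 FPKM with rFGF4, and had 8.42, 23.1, 10.8 and 8.18 FPKM in vehicle mice 2 to 5. Its log2 difference of -0.12 (standard error 0.30) was 0.2 without vehicle mouse 3.

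*Slc4a1* (ENSMUSG00000006574; chromosome 11, 102348824 to 102366203) had 3.13, 4.17, 3.77 and 9.75 FPKM in rFGF4 mice 1, 2, 3 and 5 and 10.4, 5.67, 7.64 and 5.24 FPKM in vehicle mice 2 to 5. Mouse 5 of the rFGF4 group exceeded all vehicle-treated mice but mouse 2, and the others of its group lay below the vehicle group. The log2 difference was -0.48 (standard error 0.33; two-sided exact permutation p = 0.229). It was -0.78 without rFGF4 mouse 5 (unadjusted p = 0.0116 in limma), the alternative in which it met both criteria, and -0.31 without vehicle mouse 2 (unadjusted p = 0.392 in limma) and -0.32 without rFGF4 mouse 1 (unadjusted p = 0.376 in limma). *Slc4a1* is also the band 3 gene of red blood cells, and the table gives its 5 transcripts as a single value. The hemoglobin gene *Hba-a1* had 32.7, 401, 116 and 714 FPKM in the rFGF4 mice and 1045, 1117, 731 and 315 FPKM in the vehicle mice, in the same order of mice. *Hbb-bt* ran from 14.1 to 627 FPKM and *Alas2*, the erythroid enzyme of heme synthesis, from 0.327 to 17.1 FPKM, both lowest in rFGF4 mouse 1 and highest in vehicle mouse 3. All 5 tested red blood cell genes were lower with rFGF4, with a median log2 difference of -1.97 (-1.13 without rFGF4 mouse 1). None was at an unadjusted p under 0.05 in limma with all mice, where 4.62% of all tested genes were. All 5 met both criteria without rFGF4 mouse 5 or vehicle mouse 5, and 3 without rFGF4 mouse 2, where 3.80%, 2.85% and 1.23% of all tested genes did. The r of *Slc4a1* with the summed FPKM of red blood cell genes was 0.79 (exact permutation p = 0.0137, adjusted p = 0.124; rho = 0.81, p = 0.0218, adjusted p = 0.122), and 0.58 without the 2 farthest mice. Relations of like size were seen with the principal cell sum (r = 0.72, exact permutation p = 0.0564, adjusted p = 0.216, rho = 0.83, p = 0.0154, adjusted p = 0.106), the macrophage sum (r = -0.73, p = 0.0525, adjusted p = 0.215, rho = -0.69, p = 0.0694, adjusted p = 0.258) and the scaling factor of the library (r = -0.74, p = 0.0310, adjusted p = 0.175, rho = -0.83, p = 0.0154, adjusted p = 0.106). Without the 2 farthest mice these were 0.37, -0.82 and -0.68. The r was 0.66 with the proximal tubule sum (exact permutation p = 0.0514, adjusted p = 0.215, rho = 0.57, p = 0.151, adjusted p = 0.340) and 0.62 with the distal convoluted tubule sum (exact permutation p = 0.0757, adjusted p = 0.252, rho = 0.57, p = 0.151, adjusted p = 0.340), and 0.52 and 0.35 without the 2 farthest mice. The ratio of pendrin to *Slc4a1*, type B over type A, was 2.31 ± 0.701 (SD, n = 4) with rFGF4 and 2.67 ± 1.61 (SD, n = 4) with vehicle, a difference smaller than the SD of the vehicle group. It ran from 1.61 to 2.96 with rFGF4 and from 1.25 to 4.89 with vehicle. The ratio of *Slc4a9*, also of type B cells, to *Slc4a1* had the opposite order, at 2.42 ± 0.889 (SD, n = 4) with rFGF4 and 1.96 ± 1.44 (SD, n = 4) with vehicle, again with overlapping groups. The ratio of pendrin to *Slc4a9*, which is free of *Slc4a1*, was 0.623, 1.10, 0.954 and 1.46 in rFGF4 mice 1, 2, 3 and 5 and 1.54, 1.2, 1.96 and 1.12 in vehicle mice 2 to 5, with means of 1.03 ± 0.347 and 1.46 ± 0.382 (SD, n = 4 each) and overlapping groups.

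**Figure D2:**
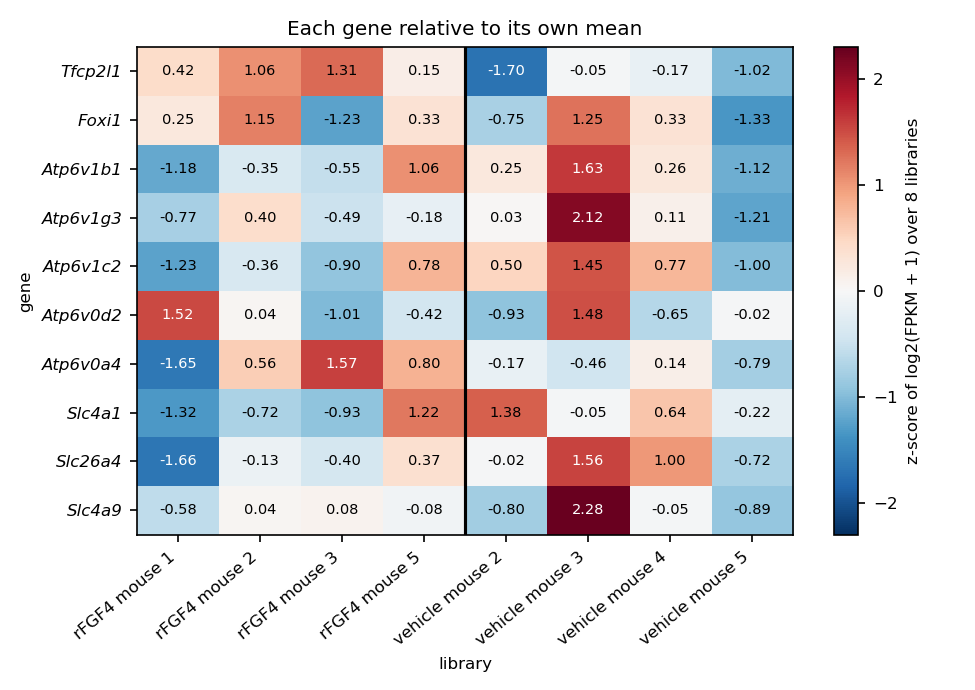
Each gene's log2(FPKM + 1) in the 8 libraries as a z-score, that is, its distance from the gene's own mean in standard deviations (red above, blue below); the black line parts rFGF4-treated from vehicle-treated mice. Vehicle mouse 3 is at 1.25 or more for 7 genes, and rFGF4 mouse 1 is at -1.18 or less for 5.

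Single mice stood out across the members. Vehicle mouse 3 had the highest value of its group for 8 of the 10 genes, and vehicle mouse 5 the lowest for 8. In the rFGF4 group mouse 1 had the lowest value for 7. Ranked over all 8 mice, vehicle mouse 3 was highest for 6 members and for 7 of 15 further tested intercalated cell genes. By the same rank rFGF4 mouse 1 was lowest for 5 and 8, and vehicle mouse 5 for 3 and 1. Summed over the 10 members, the libraries had 165, 219, 215 and 224 FPKM with rFGF4 and 186, 269, 214 and 154 FPKM with vehicle, and the mean was 206 FPKM in each group.

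Across the 8 mice, the exact permutation tests of 45 pairs of members gave an adjusted p under 0.05 for 2 pairs by Pearson's r and for 3 by Spearman's rho. *Atp6v1b1* and *Atp6v1c2*, both of the V1 sector, kept the same order of mice, with r = 0.96 (exact permutation p = 2.48e-05, adjusted p = 0.00112) and rho = 1.0 (exact permutation p = 4.96e-05, adjusted p = 0.00223), p-values that are the smallest these permutations gave. Pendrin was correlated with both subunits. Its r was 0.92 with *Atp6v1c2* (exact permutation p = 2.48e-04, adjusted p = 0.00558; rho = 0.98, p = 3.97e-04, adjusted p = 0.00595). With *Atp6v1b1* it was 0.89 (exact permutation p = 0.00340, adjusted p = 0.0510; rho = 0.98, p = 3.97e-04, adjusted p = 0.00595). With the 2 mice farthest from the median of the first gene left out, r was 0.92 for *Atp6v1b1* with *Atp6v1c2*, 0.87 for *Atp6v1c2* with pendrin and 0.75 for *Atp6v1b1* with pendrin. In deviations from the group means, which remove any treatment effect, these 3 pairs had r = 0.97, 0.90 and 0.90. The FPKM of all genes in a library are scaled to a fixed number of mapped fragments. Whether this bears on these correlations was not tested. The same 3 genes were compared with summed levels of marker lists. With the 15 further tested intercalated cell genes and the 2 low ones, the r was 0.91 for *Atp6v1b1* (exact permutation p = 1.24e-04, adjusted p = 0.00372, rho = 0.98, p = 3.97e-04, adjusted p = 0.00893) and 0.91 for *Atp6v1c2* (exact permutation p = 4.96e-05, adjusted p = 0.00223, rho = 0.98, p = 3.97e-04, adjusted p = 0.00893). For pendrin it was 0.88 (exact permutation p = 0.00360, adjusted p = 0.0462, rho = 1.0, p = 4.96e-05, adjusted p = 0.00446), and without the 2 farthest mice these were 0.80, 0.89 and 0.78. With the summed FPKM of 5 distal convoluted tubule genes, which was 63.6, 271, 217 and 330 in rFGF4 mice 1, 2, 3 and 5 and 243, 350, 343 and 183 in vehicle mice 2 to 5, the r of pendrin was 0.89 (exact permutation p = 4.96e-05, adjusted p = 0.00223; rho = 0.98, p = 3.97e-04, adjusted p = 0.00893; 0.88 without the 2 farthest mice). That of *Atp6v1c2* was 0.77 (exact permutation p = 0.00645, adjusted p = 0.0645, rho = 0.95, p = 0.00114, adjusted p = 0.0171) and that of *Atp6v1b1* 0.75 (exact permutation p = 0.0192, adjusted p = 0.144, rho = 0.95, p = 0.00114, adjusted p = 0.0171), or 0.84 and 0.78 without the 2 farthest mice. With the principal cell sum the r was 0.72 for *Atp6v1c2*, 0.58 for pendrin and 0.69 for *Atp6v1b1* (exact permutation p = 0.0495, 0.132 and 0.0625, adjusted p = 0.215, 0.342 and 0.216). With the red blood cell sum *Atp6v1c2* alone had an adjusted p under 0.05 by r, and none by rho. The r was 0.86 for *Atp6v1c2* (exact permutation p = 0.00258, adjusted p = 0.0387, rho = 0.88, p = 0.00724, adjusted p = 0.0652), 0.85 for pendrin (exact permutation p = 0.00580, adjusted p = 0.0645, rho = 0.90, p = 0.00456, adjusted p = 0.0587) and 0.78 for *Atp6v1b1* (exact permutation p = 0.0215, adjusted p = 0.149, rho = 0.88, p = 0.00724, adjusted p = 0.0652), and 0.93, 0.77 and 0.86 without the 2 farthest mice. With the scaling factor of the library none of the 3 had an adjusted p under 0.05, the r being -0.74, -0.79 and -0.70 in the same order (exact permutation p = 0.0304, 0.0188 and 0.0494, adjusted p = 0.175, 0.144 and 0.215, rho = -0.76, -0.81 and -0.76, p = 0.0368, 0.0218 and 0.0368, adjusted p = 0.158, 0.122 and 0.158), and -0.47, -0.32 and -0.34 without the 2 farthest mice. *Foxi1* was nearest to *Atp6v1g3*, with r = 0.73 (exact permutation p = 0.0250, adjusted p = 0.125; rho = 0.88, p = 0.00724, adjusted p = 0.0815) and r = 0.60 without the 2 farthest mice. *Tfcp2l1* had a median r of 0.07 to the other members, which was 0.32 in deviations from the group means and 0.17 without vehicle mouse 3. Its r to *Foxi1* was 0.32 (exact permutation p = 0.434, adjusted p = 0.724, rho = 0.17, p = 0.703, adjusted p = 0.870), and 0.78 without the 2 farthest mice. Its r to *Slc4a9* was 0.29 (exact permutation p = 0.472, adjusted p = 0.745, rho = 0.60, p = 0.132, adjusted p = 0.331), but 0.66 in deviations, 0.81 without vehicle mouse 3 and 0.14 without the 2 farthest mice. Its r of largest size was to *Slc4a1*, at -0.66 (exact permutation p = 0.0787, adjusted p = 0.236; rho = -0.71, p = 0.0576, adjusted p = 0.234), and -0.31 without the 2 farthest mice. The r of *Atp6v0d2* with *Atp6v0a4* was -0.72 (exact permutation p = 0.0478, adjusted p = 0.193; rho = -0.67, p = 0.0831, adjusted p = 0.234), and -0.42 with the 2 farthest mice left out.

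**Figure D3:**
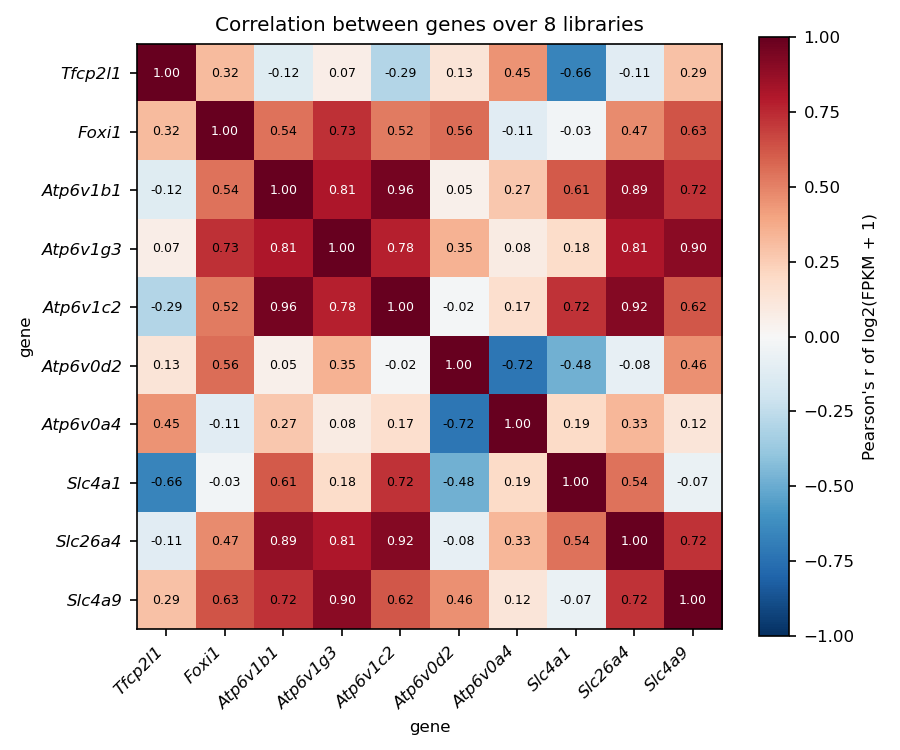
Pearson's r between the 10 genes over the 8 libraries, on log2(FPKM + 1), from blue at -1 to red at 1. The block of *Atp6v1b1*, *Atp6v1g3*, *Atp6v1c2* and *Slc26a4* lies between 0.78 and 0.96, while the r of *Tfcp2l1* with the others has a median of 0.07 (0.32 in deviations from the group means, which are not plotted).

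The genes whose pattern was most like the mean z-score of the 10 members, among 13189 others with a mean of at least 1 FPKM, were *Grina* (Pearson's r = 0.945 over 8 libraries), *Kcne1* (0.944), *Slc2a9* (0.927), *Cox4i1* (0.927) and *Gm47795* (0.918). All 5 were highest in vehicle mouse 3, and their log2 differences between the groups lay between -0.37 and -0.01.

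Other genes of the same cells were examined next. Of 17 further intercalated cell genes, 15 were tested, *Slc26a7* and *P2ry14* being too low. None had an unadjusted p under 0.05 in limma with all mice, where 4.62% of all tested genes did. However, 3 of the 15 met both criteria without rFGF4 mouse 5 and 2 without vehicle mouse 5. In those fits 3.80% and 2.85% of all tested genes did so. The median log2 difference was -0.18, with 4 genes above 0 and 11 below, and -0.29 after scaling, with 3 above and 12 below. It ran from -0.29 to -0.05 with each mouse left out (-0.05 without rFGF4 mouse 1). Without vehicle mouse 3 it was -0.07, with 7 genes above 0 and 8 below. The smallest p belonged to *Insrr*, the alkali-sensing insulin receptor-related receptor, at 1.46, 2.91, 3.43 and 5.06 FPKM in rFGF4 mice 1, 2, 3 and 5 and 4.35, 8.93, 5.66 and 2.96 FPKM in vehicle mice 2 to 5 (log2 difference -0.61, standard error 0.34; two-sided exact permutation p = 0.2). The ammonia channel genes *Rhcg* and *Rhbg* followed, with log2 differences of -0.48 (standard error 0.28) and -0.43 (standard error 0.27). Both had their highest value in vehicle mouse 3, at 80.4 and 26.3 FPKM, and their lowest in rFGF4 mouse 1, at 26.6 and 9.67 FPKM.

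**Figure D4:**
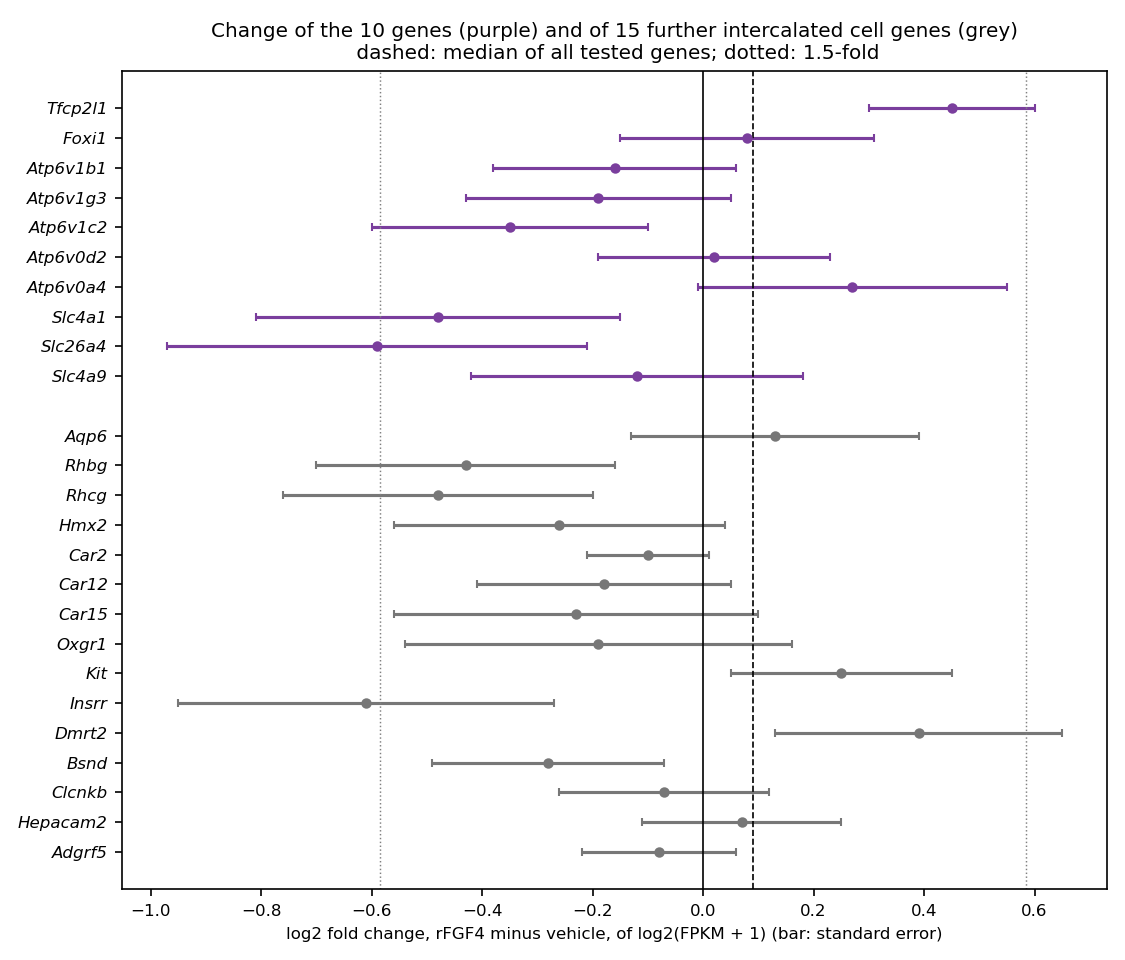
Log2 difference between rFGF4-treated and vehicle-treated mice on log2(FPKM + 1), with its standard error, for the 10 genes in purple and the 15 further tested intercalated cell genes in grey. The dashed line is the median of all tested genes, 0.09, and the dotted lines are a 1.5-fold change; *Tfcp2l1* at 0.45 is the highest of the 25, and *Insrr* at -0.61 and *Slc26a4* at -0.59 are the lowest.

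Pump subunits that all cells use made up a further list. All 18 were tested, with a median log2 difference of 0.07, 13 above 0 and 5 below, which became 6 above and 12 below after scaling. None had an unadjusted p under 0.05 in limma with all mice, where 4.62% of all tested genes did. *Atp6v1c1*, the general C subunit, had the smallest p, with a log2 difference of 0.26 (standard error 0.12; two-sided exact permutation p = 0.0571), followed by *Atp6v0a1* at 0.49 (standard error 0.26) and *Atp6v1b2* at 0.24 (standard error 0.13). The KEGG pathway of collecting duct acid secretion in the deposited annotation, a list added after the data were seen, had 25 of 27 genes tested. Their median was 0.02, with 14 above 0 and 11 below, and none was at an unadjusted p under 0.05, against the same 4.62% of all tested genes.

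The share of the specialised form among the forms of a subunit overlapped between the groups. *Atp6v1b1* made up 19.4, 20.1, 19.7 and 29.9% of the summed FPKM of *Atp6v1b1* and *Atp6v1b2* in rFGF4 mice 1, 2, 3 and 5 and 25.3, 38.5, 25.4 and 22.0% in vehicle mice 2 to 5. *Atp6v1c2* made up 39.6% ± 8.47 (SD, n = 4) of the C forms with rFGF4 and 50.7% ± 10.0 (SD, n = 4) with vehicle, and the groups overlapped between 37.3% and 51.2%. *Atp6v1g3* made up 17.6% ± 1.96 and 20.1% ± 5.67 (SD, n = 4 each) beside *Atp6v1g1* and *Atp6v1g2*. *Atp6v0d2* made up 17.9% ± 2.96 and 18.3% ± 2.86 (SD, n = 4 each) beside *Atp6v0d1*. *Atp6v0a4* made up 42.8, 61.5, 79.6 and 74.1% of the 4 a forms in rFGF4 mice 1, 2, 3 and 5 and 68.9, 64.0, 72.3 and 49.7% in vehicle mice 2 to 5. The other a forms are *Atp6v0a1*, *Atp6v0a2* and *Tcirg1*, the a3 form of osteoclasts and macrophages, which was included after its values were seen. The share was lowest in rFGF4 mouse 1 and vehicle mouse 5, where *Tcirg1* was highest, at 16.8 and 18.4 FPKM against 4.69 to 9.08 in the other mice. *Atp6v0a2*, *Tcirg1* and *Atp6v1g2* had log2 differences of 0.06 (standard error 0.16), 0.09 (standard error 0.45) and 0.08 (standard error 0.32).

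**Figure D5:**
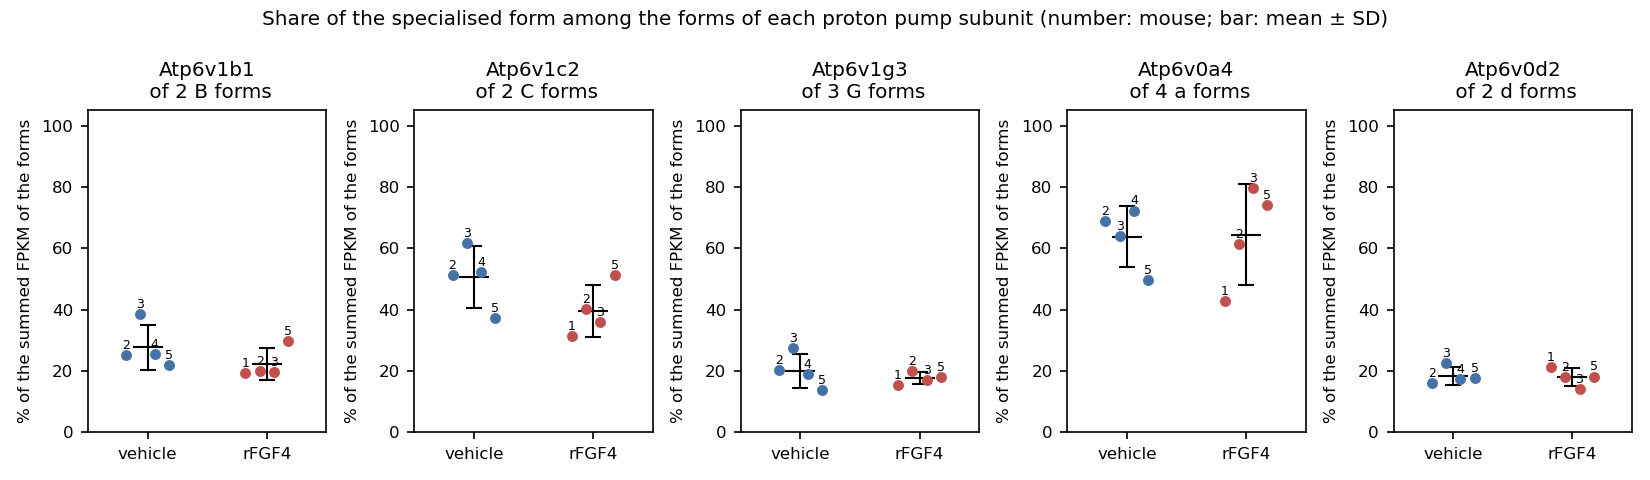
Percentage that the specialised form makes up of the summed FPKM of all 2 to 4 forms of the same proton pump subunit in each library, with the mouse number at each point and the mean ± SD of 4 mice in black. The groups overlap in every panel, and *Atp6v0a4* ranges from 42.8% in rFGF4 mouse 1 to 79.6% in rFGF4 mouse 3.

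Principal cells, the other cell type of the collecting duct, were followed by 12 genes, of which 11 were tested. All 11 had a log2 difference below 0, also after scaling, with a median of -0.24. Up to 4 were above 0 when single mice were left out (4 without vehicle mouse 2), and the median then ran from -0.34 to -0.12. *Aqp2*, *Scnn1b* and *Gata3* were close to 0, at -0.02 each (standard errors 0.28, 0.19 and 0.19), as was *Fxyd4* at -0.10 (standard error 0.35). *Npnt*, which encodes the matrix protein nephronectin, was the only one of the 11 at an unadjusted p under 0.05, where 4.62% of all tested genes were (1.06% lower). It had 17.2, 18.5, 15.9 and 22.1 FPKM in rFGF4 mice 1, 2, 3 and 5 and 22.6, 21.8, 22.2 and 24.2 FPKM in vehicle mice 2 to 5 (log2 difference -0.30, standard error 0.12; limma unadjusted p = 0.0401, adjusted p = 0.918). The water channel gene *Aqp4* was at -1.04 (standard error 0.49) and the sodium channel subunit gene *Scnn1g* at -0.42 (standard error 0.22). Of 16 tested duct regulators and Notch pathway genes, 1 met both criteria, as did 1.52% of all tested genes (0.436% lower). It was *Emx1*, a homeobox gene, which was lower with rFGF4 (log2 difference -0.74, standard error 0.29; limma unadjusted p = 0.0360, adjusted p = 0.918). It had 5.30, 10.8, 8.69 and 14.9 FPKM in rFGF4 mice 1, 2, 3 and 5 and 13.7, 20.5, 20.0 and 12.3 FPKM in vehicle mice 2 to 5, and it no longer met both criteria after scaling or without rFGF4 mouse 1 or 3 or vehicle mouse 3 or 4, nor on mice 2, 3 and 5 of each group with or without a block for the mouse number. *Adam10*, a protease that activates Notch, was at 1.22 (standard error 0.58) and *Pax2*, a kidney developmental factor, at 0.31 (standard error 0.20). None of the tested genes of the proximal tubule (10), thick ascending limb (5), distal convoluted tubule (5), inner medulla (5), macrophage (7) and B and plasma cell (3) lists had an unadjusted p under 0.05, where 4.62% of all tested genes did. Their medians were -0.40, -0.23, -0.33, -0.31, 0.43 and 0.11 in that order. The medians of 3 of these lists changed sign when single mice were left out. That of the proximal tubule was 0.09 without rFGF4 mouse 1, that of macrophages ran from -0.07 to 1.26, and that of B and plasma cells from -1.23 to 1.79. The others kept their sign but also moved, the inner medulla from -0.57 to -0.03, the thick ascending limb from -0.31 to -0.09 and the distal convoluted tubule from -0.5 to -0.19. Some genes stand on 2 lists. Without rFGF4 mouse 5, *Aqp4*, of the principal cell and inner medulla lists, and *Atp6v0a1*, of the general pump and KEGG lists, met both criteria, beside *Slc4a1*, which the KEGG list also holds, when 3.80% of all tested genes did. The duct regulators had 2, *Emx1* and *Adam10*, without that mouse or without vehicle mouse 5, when 2.85% of all tested genes did in the latter fit.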

How the data were processed

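Poly(A) RNA of kidney was sequenced in 8 libraries, 4 of rFGF4-treated and 4 of vehicle-treated mice. The authors assembled mapped reads with StringTie, merged the transcripts with gffcompare and deposited FPKM per gene, with 0.0001 in place of 0. The submitters' processing notes also name HISAT2 2.0, StringTie 1.3.0, Bowtie 0.12.2 and the build mm8, without roles. Of the identifiers, 99.5% are in GENCODE M21, from which GRCm38 coordinates were taken. The deposited columns of the authors' edgeR comparison (fold changes, p-values, q-values) were not used. Without counts, depth and counting error are unknown beyond relative depth. Samples were grouped by their titles.

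The tests covered 15150 genes, those that reached 0.5 FPKM in 4 libraries or more. The scale was log2(FPKM + 1), on which changes of low genes are understated, and the groups were tested by limma 3.58.1 under R 4.3.3 (trended prior variance, Benjamini-Hochberg adjustment), and by two-sided exact permutation tests with scipy 1.17.1. P-values measure the spread between mice only; whether the mice of a group were housed or processed together is not given. The members and lists were chosen with earlier results of these data known. The text names the 10 members, other forms of their subunits, 4 red blood cell genes (1 is not reported here), the 3 genes with the smallest p of the collecting duct and pump lists (other marker lists are given by their medians), and the 5 genes most like the members; other genes were named after their values were seen. Correlations of members with the summed FPKM of marker lists and with the scaling factor were tested after the data were seen. Mice that share a number between the groups were not treated as pairs in the main fit. On simulated data for rFGF4 against vehicle, with 15150 genes, 86 of 100 genes changed by 1 on the log2 scale and 100 of 100 changed by 2 passed the threshold, as did 333 unchanged genes. Alternatives were another pseudocount, no filter, a stricter filter, scaling, no trend, each mouse left out and a block for the mouse numbers. Figures were drawn with matplotlib 3.10.9.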

Additional observations from a re-analysis of the deposited data

How the results depend on the processing

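Of the 10 members, 0 passed the study's threshold with limma and all mice, and with each mouse left out the count ran from 0 to 1: *Slc4a1* passed without rFGF4 mouse 5 and *Slc26a4* without vehicle mouse 5, where 3.80% and 2.85% of all tested genes did. The count at an unadjusted p under 0.05 was 1, and 1 to 3 with each mouse left out (3 without vehicle mouse 5, where 6.51% of all tested genes passed, 2 without rFGF4 mouse 5, where 9.44% did, and 2 without rFGF4 mouse 1, where 4.23% did). It was 0 after scaling to a common median ratio, where the log2 difference of *Tfcp2l1* was 0.33. The median of the members ran from -0.29 to 0.10 with each mouse left out. Over all tested genes 231 passed, 165 higher and 66 lower. With a pseudocount of 0.1 there were 348, after scaling 93 higher and 81 lower, and with each mouse left out 187 to 575, the highest without rFGF4 mouse 5 and then vehicle mouse 5 (432).

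The numbers 2, 3 and 5 occur in both groups, but same-numbered mice did not deviate together (correlations of -0.229, -0.155 and -0.393 over tested genes). Unlike-numbered mice had correlations from -0.562 to 0.567, so these values cannot tell whether the mice were paired. With the replicate block on these 6 mice, 1 member passed the threshold (*Atp6v0a4*, log2 difference 0.62) and 2 an unadjusted p under 0.05, against 1.74% and 2.61% of all tested genes. The same 6 mice without the block, an alternative added after seeing the data, also gave 1 and 2, against 1.68% and 4.17% of all tested genes, with *Atp6v0a4* again past the threshold.

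Differences near 0 changed sign. *Foxi1* was at -0.04 after scaling and ran from -0.05 to 0.24 with each mouse left out. *Atp6v0d2* was at -0.10 after scaling, -0.19 on the 6 mice with or without the block, and from -0.13 to 0.16 with each mouse left out. Those of *Atp6v1g3* (-0.36 to 0.04) and *Slc4a9* (-0.27 to 0.2) were above 0 without vehicle mouse 3 alone. The causes were not tested. Without counts, fits that need them were not run, and the precision of single values rests on 4 mice per group.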
